A study of Mus musculus with 24 samples.

Results

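The genes described here are 35 heat shock proteins, chaperones and cochaperones, found by gene name in a fixed list, with no threshold on a measured value. The list was chosen with earlier results of these data known. All 35 were found among the 45706 genes of the count table, and all 35 were among the 15667 genes with enough reads to be tested. By role they comprise 3 heat shock transcription factors, 7 members of the HSP70 and HSP110 families, 5 J-domain cochaperones, 7 genes of HSP90 and its cochaperones, 4 small heat shock proteins and partners, 2 subunits of the mitochondrial chaperonin and 7 subunits of the cytosolic chaperonin TRiC. The list carries the name cytosolic, but Hspa9, Hspd1 and Hspe1 encode proteins that work inside mitochondria.

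Poly(A) RNA was sequenced from the whole hypothalamus of male DIO mice, a model of obesity induced by diet, with a mean body weight of 53 g and housed in pairs. In the PICK1i group (8 libraries) mice received mPD5, an inhibitor of the scaffold protein PICK1, at 56 mg/kg, and in the PSD-95i group (8 libraries) they received UCCB01-147, an inhibitor of the scaffold protein PSD-95, at 25 mg/kg. Mice of the saline group (8 libraries) received isotonic saline. Every group was injected daily for 5 days, and tissue was taken in the morning, 2 h after the last injection. Strain and age were not given in the sources used here, the doses of the inhibitors differed, and the protocol gives 6 mice for saline where the labels give 8 libraries. No label ties a library to a mouse, so p-values measure only the spread between these libraries, which may be partly technical. Library numbers also ran in pairs, with both neighbouring numbers of a pair always in the same group. Whether such neighbours shared a cage or handling was not stated. The main fit and the permutation tests below treated the 8 libraries of a group as independent, which may not hold if they did.

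Heat shock proteins bind unfolded or newly made proteins and help them fold, and in brain they are also needed for routine work such as the recycling of synaptic vesicle coats and the maturation of steroid receptors. HSP70 proteins receive clients from J-domain proteins and pass some of them to HSP90 through cochaperones, while TRiC folds actin and tubulin. When unfolded protein builds up, the transcription factor HSF1 binds heat shock elements, which are inverted repeats of a short unit, in the promoters of genes such as Hspa1a, Hspa1b and Dnajb1 and turns them on.

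The libraries were not all alike. The sum of estimated counts ranged from 4762703 to 9228858 over the libraries, and all 20 genes fixed as markers of hypothalamus were detected in all 24. Saline replicates 2 and 3 carried the pituitary hormone transcript Gh at 52238 and 31688 CPM (counts scaled to the library total), against at most 41.4 CPM in any other library, and their summed oligodendrocyte markers (10 genes) were the lowest of all, at 3070 and 3999 CPM. The mitochondrially encoded share of counts averaged 12.3% ± 2.61 in PICK1i and 9.72% ± 0.820 in saline libraries (SD, n = 8 each), with p = 0.0207 by exact permutation of 12870 splits, two-sided, or 0.0310 after adjustment for 3 comparisons. The exact permutation p was 0.0576 without saline replicates 2 and 3. Without PICK1i replicates 1, 2, 5 and 6 it was 0.525. Those PICK1i libraries had the highest share, so leaving them out shrinks the difference by selection and cannot test it. The PSD-95i libraries averaged 9.68% ± 0.628. The share was highest in PICK1i replicates 1, 2, 5 and 6 (13.5% to 16.6%), where long transcripts were also low relative to short ones. Of these, replicates 1 and 2 were a pair of neighbouring library numbers, as were replicates 5 and 6. PICK1i replicate 6 held 439.7 CPM of cortical and hippocampal marker transcripts (10 genes), against at most 161 CPM elsewhere. Whether these library differences contribute to the values below was not tested, so the comparisons are also given without those libraries. In whole tissue, a change in the number of cells of a type and a change in RNA per cell cannot be told apart.

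Promoter sequences are shown for the stress-inducible pair Hspa1a and Hspa1b, whose levels varied together between libraries, and for Cacybp, Stip1 and Fkbp4, which were higher with PICK1i. Each is the 250 bases before the start site in RefSeq (GRCm38.p6), written 5′ to 3′ in the direction of the gene, with matches to a heat shock element of 2 units in capitals. They lie at chr17:34972157-34972406 on the minus strand (Hspa1a), chr17:34959239-34959488 on the minus strand (Hspa1b), chr1:160212893-160213142 on the minus strand (Cacybp), chr19:7040027-7040276 on the minus strand (Stip1) and chr6:128438657-128438906 on the minus strand (Fkbp4).
Hspa1a: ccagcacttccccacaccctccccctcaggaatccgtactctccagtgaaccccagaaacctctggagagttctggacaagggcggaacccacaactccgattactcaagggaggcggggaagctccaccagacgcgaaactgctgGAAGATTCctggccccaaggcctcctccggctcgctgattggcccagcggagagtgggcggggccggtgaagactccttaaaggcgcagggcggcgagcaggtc
Hspa1b: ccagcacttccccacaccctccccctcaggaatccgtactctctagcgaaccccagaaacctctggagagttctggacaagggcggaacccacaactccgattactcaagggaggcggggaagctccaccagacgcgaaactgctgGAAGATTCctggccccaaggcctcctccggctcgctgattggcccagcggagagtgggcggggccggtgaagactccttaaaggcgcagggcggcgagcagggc
Cacybp: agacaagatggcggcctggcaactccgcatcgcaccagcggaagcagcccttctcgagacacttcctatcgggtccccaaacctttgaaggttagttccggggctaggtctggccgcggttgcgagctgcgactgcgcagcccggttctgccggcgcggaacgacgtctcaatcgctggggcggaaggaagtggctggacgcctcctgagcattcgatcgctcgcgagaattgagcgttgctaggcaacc
Stip1: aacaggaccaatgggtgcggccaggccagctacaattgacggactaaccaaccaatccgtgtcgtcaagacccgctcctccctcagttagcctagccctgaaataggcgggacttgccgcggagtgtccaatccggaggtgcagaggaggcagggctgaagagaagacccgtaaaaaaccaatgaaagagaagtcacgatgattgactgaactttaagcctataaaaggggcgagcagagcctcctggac
Fkbp4: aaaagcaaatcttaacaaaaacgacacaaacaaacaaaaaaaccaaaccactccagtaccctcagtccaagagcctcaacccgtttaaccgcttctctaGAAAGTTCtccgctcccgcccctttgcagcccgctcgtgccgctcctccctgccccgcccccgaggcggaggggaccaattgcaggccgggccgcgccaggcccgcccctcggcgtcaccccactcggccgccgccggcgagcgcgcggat

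The letters searched were GAANNTTC and TTCNNGAA for 2 units, and GAANNTTCNNGAA and TTCNNGAANNTTC for 3 units. The 2-unit motifs read the same on both strands, the 3-unit motifs are each other's reverse complement, and each 3-unit match also contains 2-unit matches. Of the 35 genes, 27 had an entry in the RefSeq promoter table, which covers 250 bases before to 50 bases after a start. A 2-unit match was present in 14 of the 27 genes (51.9%), against 4587 of the 27025 genes in the table. A 3-unit match was present in 5 of the 27 (Hsph1, Dnajb6, Chordc1, Hspd1 and Hspe1; 18.5%), against 0.662% of all genes, and the windows of Hspd1 and Hspe1 overlap, so both hold the same letters. In Hspa1a and Hspa1b the match began 104 bases before the start, within promoters that were identical at 247 of 250 positions (98.8%). In Fkbp4 it began 151 bases before the start, and the windows of Cacybp, Stip1, Ahsa1 and Dnajb1 held no match. Of the 7 genes higher with PICK1i described below, 4 had an entry and only Fkbp4 among those 4 had a match, against 13 of 23 of the other members. A match describes letters in the window and not binding by a factor.

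Levels between genes were compared in TPM, which corrects for transcript length. In saline libraries the median level was 1643 TPM for Hsp90ab1, the constitutive cytosolic HSP90, 1209 TPM for Hspa8, the constitutive HSP70, and 961 TPM for Hsp90aa1, the inducible HSP90. The HSP70 to HSP90 adaptor Stip1 followed at 291 TPM, and the TRiC subunits lay between 112 TPM (Cct3) and 255 TPM (Cct5). The stress-inducible HSP70 genes were low, at 20.2 TPM for Hspa1a and 5.38 TPM for Hspa1b, and the small heat shock protein gene Hspb1 stood at 13.4 TPM. Of the inducible genes, Hsp90aa1 thus stood among the most abundant members, whereas Hspa1a, Hspa1b and Hspb1 were among the lowest. Between all 24 libraries the coefficient of variation of the members' CPM had a median of 8.68%, against 15.5% over all genes tested. These medians were not matched for read count, so they do not show that the members were steadier than other genes of like level. Among the members the coefficient was smallest for Dnaja2 (4.17%) and largest for Hspb1 (68.1%) and Hspa1b (26.5%).

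**Figure D1:**
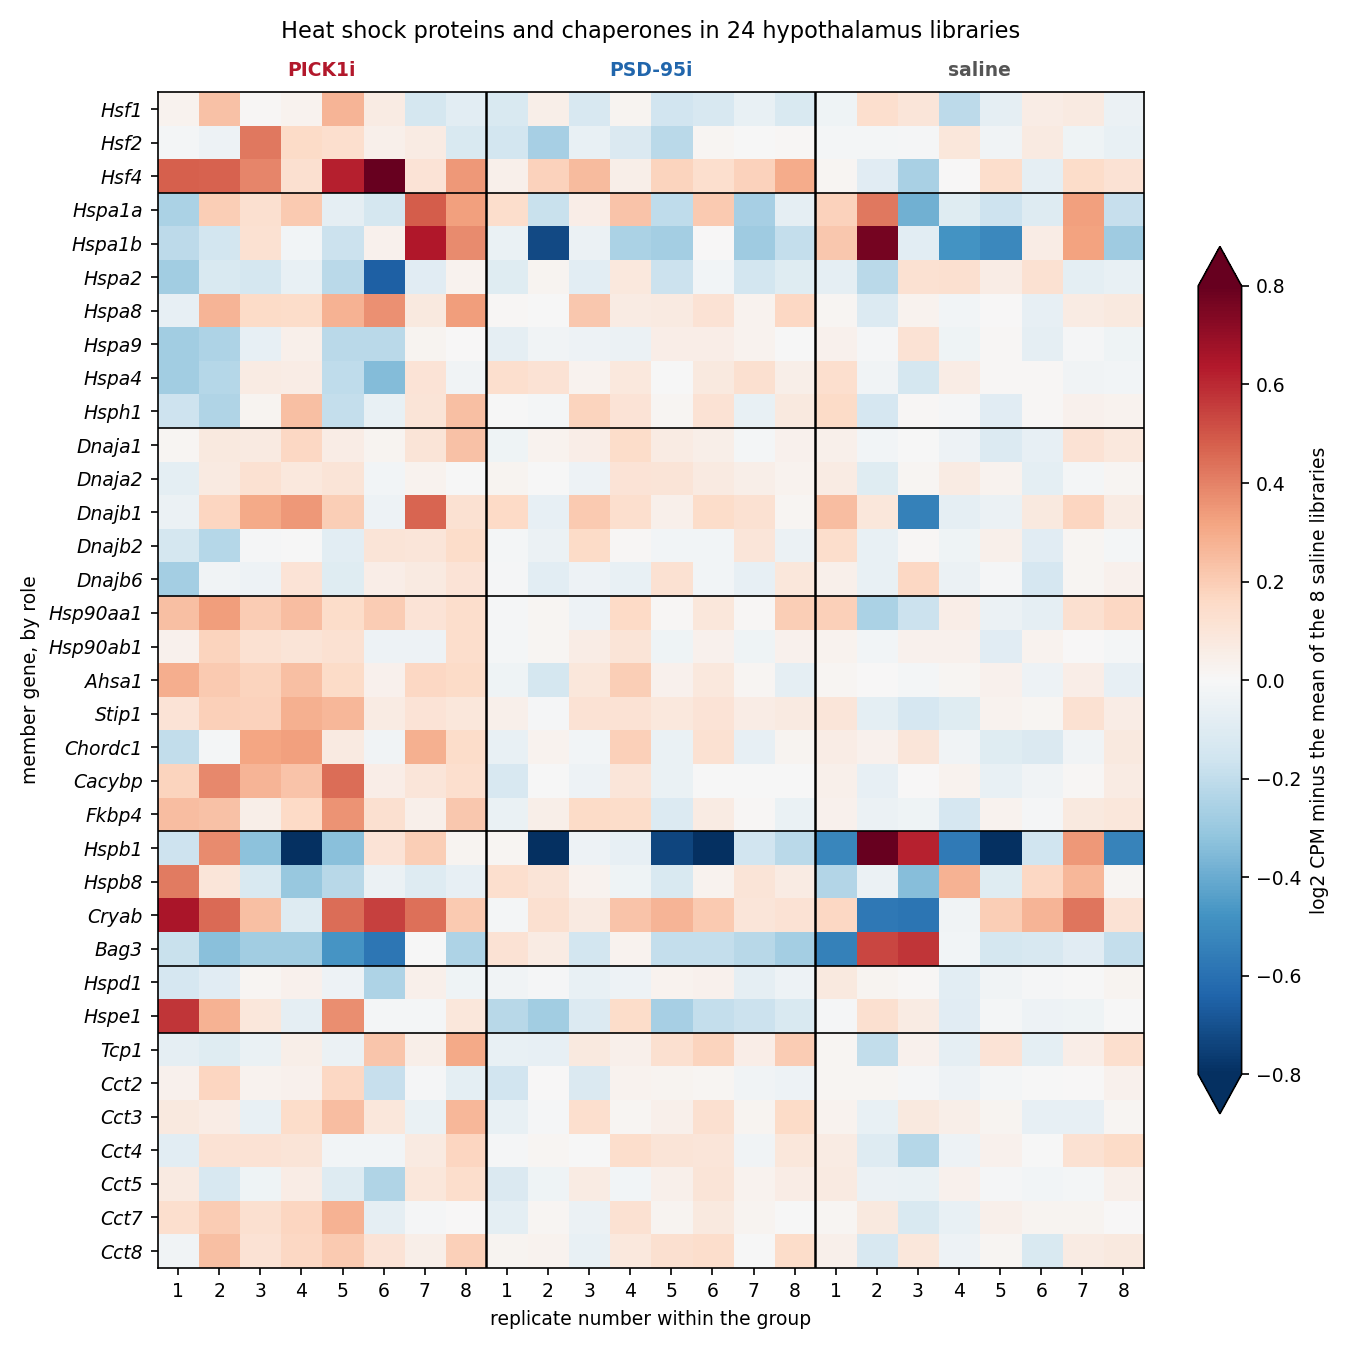
Level of each of the 35 members (rows, grouped by role) in each of the 24 libraries (columns, by group and replicate number), as log2 CPM minus the mean of the 8 saline libraries. The 5 HSP90 group genes called in PICK1i are mostly above the saline mean in the PICK1i columns, whereas Hspb1 and Bag3 are high and Cryab is low in saline replicates 2 and 3.

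With PICK1i, 7 of the 35 members were higher than with saline and 0 were lower in edgeR's quasi-likelihood test, at a Benjamini-Hochberg adjusted p below 0.05 over all genes tested. Over all genes 9.15% were called in this comparison, 4.88% as higher and 4.27% as lower. Because the members were chosen with earlier results of these data known, setting their count beside these shares does not test the group. By role, 5 of the 7 genes of HSP90 and its cochaperones rose, as did 1 of 3 heat shock transcription factors (Hsf4) and 1 of 7 HSP70 and HSP110 genes (Hspa8), while no J-domain, small heat shock protein, mitochondrial chaperonin or TRiC gene passed the test. All changes were small, between 11.9% and 34.3% for the 7. Without saline replicates 2 and 3, and likewise without PICK1i replicates 1, 2, 5 and 6, 0 of the 35 passed, where 0.0316% and 0% of all genes were called. At an unadjusted p below 0.05 there were 11 and 12 of the 35 in these fits, where 24.3% and 12.2% of all genes were. The median log2 fold change of the members was 0.08, against -0.01 over all genes tested.

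Of the transcription factors, Hsf4, known for its role in the lens, showed the largest change. Its CPM ranged from 37.3 to 61.2 with a median of 46.6 in PICK1i libraries, and from 28.8 to 38.3 with a median of 34.7 in saline libraries. All 8 PICK1i libraries were above the saline median and 6 were above every saline library. The log2 fold change was 0.43 ± 0.08 (SE; edgeR adjusted p = 0.0175). The value was highest in PICK1i replicates 6 and 5 (61.2 and 53.2 CPM), and without PICK1i replicates 1, 2, 5 and 6 the log2 fold change was 0.24 (adjusted p = 0.367). Hsf1, the main regulator of the stress response, had a log2 fold change of 0.05 ± 0.06 (adjusted p = 0.598), and Hsf2, a partner of HSF1, of 0.09 ± 0.07 (adjusted p = 0.378).

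Hspa8 encodes the constitutive HSP70 that strips clathrin from vesicles. It had between 979.6 and 1323 CPM (median 1192) in PICK1i libraries and between 954 and 1083 CPM (median 1034) in saline libraries. PICK1i replicate 1 lay within the saline range, and the other 7 were above every saline library. The log2 fold change was 0.20 ± 0.06 (edgeR adjusted p = 0.0353). Reads of Hspa8 cannot be placed with certainty, because 72.8% of the 52-base windows of its longest coding transcript also occur in other genes, chiefly the predicted genes Gm15459 and Gm8355 (26.7 and 188 CPM). With the counts of every gene sharing over 5% of windows added, the log2 fold change was 0.21 ± 0.06 (adjusted p = 0.0253).

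The remaining HSP70 and HSP110 genes did not pass the test. Hspa1a, the stress-inducible HSP70, had 27.4 to 45.8 CPM (median 36.7) in PICK1i libraries and 24.9 to 44.0 CPM (median 30.5) in saline libraries. The groups overlapped almost completely, with a log2 fold change of 0.11 ± 0.11 (adjusted p = 0.542). Its near-identical copy Hspa1b had a log2 fold change of 0.06 ± 0.17 (adjusted p = 0.839). Hspa1a and Hspa1b shared 58.3% of the windows of Hspa1a, so reads could be split between them, and their counts summed with those of Hspa1l, which shares 7.72%, gave 0.12 ± 0.12 (adjusted p = 0.535). Hspa2, best known from sperm development, had -0.18 ± 0.07 (adjusted p = 0.103), and the mitochondrial HSP70 Hspa9 had -0.11 ± 0.05 (adjusted p = 0.146). The HSP110 genes, whose products release ADP from HSP70, had -0.10 ± 0.06 for Hspa4 (adjusted p = 0.296) and 0.00 ± 0.07 for Hsph1 (adjusted p = 0.972).

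Among the J-domain genes, Dnajb1, the stress-inducible HSP40, had 66.3 to 94.7 CPM (median 77.7) in PICK1i libraries and 47.0 to 81.3 CPM (median 72.0) in saline libraries. Its log2 fold change was 0.19 ± 0.08 (adjusted p = 0.143), and saline replicate 3, with the 47.0 CPM, lay well below the other saline libraries. The other 4 lay between -0.01 (Dnajb2) and 0.09 (Dnaja1), with adjusted p between 0.177 and 0.937. The 95% interval of the log2 fold change of Dnaja1 was -0.00 to 0.19, that of Dnaja2 -0.05 to 0.13 and that of Dnajb6 -0.12 to 0.11.

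The HSP90 group held most of the genes called. Hsp90aa1, the inducible cytosolic HSP90, ranged from 951 to 1113 CPM (median 1016) in PICK1i libraries and from 739.7 to 1006 CPM (median 886) in saline libraries. The log2 fold change was 0.20 ± 0.06 (edgeR adjusted p = 0.0473). The low end of the saline range was set by saline replicates 2 and 3 (739.7 and 784 CPM), and without them the log2 fold change was 0.12 (adjusted p = 0.162). Its sequence is also shared, chiefly with the predicted genes Gm12346 and Gm5844 (61.0 and 83.4 CPM), and with such genes added the value was 0.19 ± 0.06 (adjusted p = 0.0584). Hsp90ab1, the constitutive HSP90, had 1365 to 1588 CPM with PICK1i and 1323 to 1441 CPM with saline, a log2 fold change of 0.08 ± 0.05 that did not pass (adjusted p = 0.272).

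Of the HSP90 cochaperones, Cacybp gave the smallest p. It encodes a protein that binds S100 proteins and the ubiquitin ligase SIAH1 and carries a CS domain like those of HSP90 cochaperones. It ranged from 128 to 168 CPM (median 142) in PICK1i libraries and from 118 to 129 CPM (median 124) in saline libraries, and 7 of 8 PICK1i libraries were above every saline library. The log2 fold change was 0.23 ± 0.05 (edgeR adjusted p = 0.0191).

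Ahsa1, which stimulates the ATPase of HSP90, ranged from 129.6 to 155 CPM (median 143) with PICK1i and from 121 to 131 CPM (median 127) with saline. Again 7 of 8 PICK1i libraries were above every saline library, and the log2 fold change was 0.18 ± 0.05 (adjusted p = 0.0255). Fkbp4, a prolyl isomerase of steroid receptor complexes, ranged from 181 to 225 CPM (median 200.4) with PICK1i and from 161 to 188 CPM (median 177) with saline. Of the PICK1i libraries, 6 were above every saline library, and the log2 fold change was 0.18 ± 0.05 (adjusted p = 0.0369).

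Stip1, which joins HSP70 to HSP90, ranged from 321 to 373 CPM (median 339.8) with PICK1i and from 279 to 333 CPM (median 311) with saline. Here 4 of the PICK1i libraries were above every saline library, and the log2 fold change was 0.16 ± 0.05 (adjusted p = 0.0383). Chordc1, a further HSP90 cochaperone, had 0.13 ± 0.07 and did not pass (adjusted p = 0.200). Reads of Fkbp4, Stip1 and Hsf4 shared no 52-base window with another gene on their longest coding transcript, while Ahsa1 shared 1.06% and Cacybp 3.03%. Dnaja1, Dnajb6, Hspb1, Hspd1 and, at 5.26%, Hspe1 also share over 5% of their windows with other genes, so their values are uncertain in the same way.

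**Figure D2:**
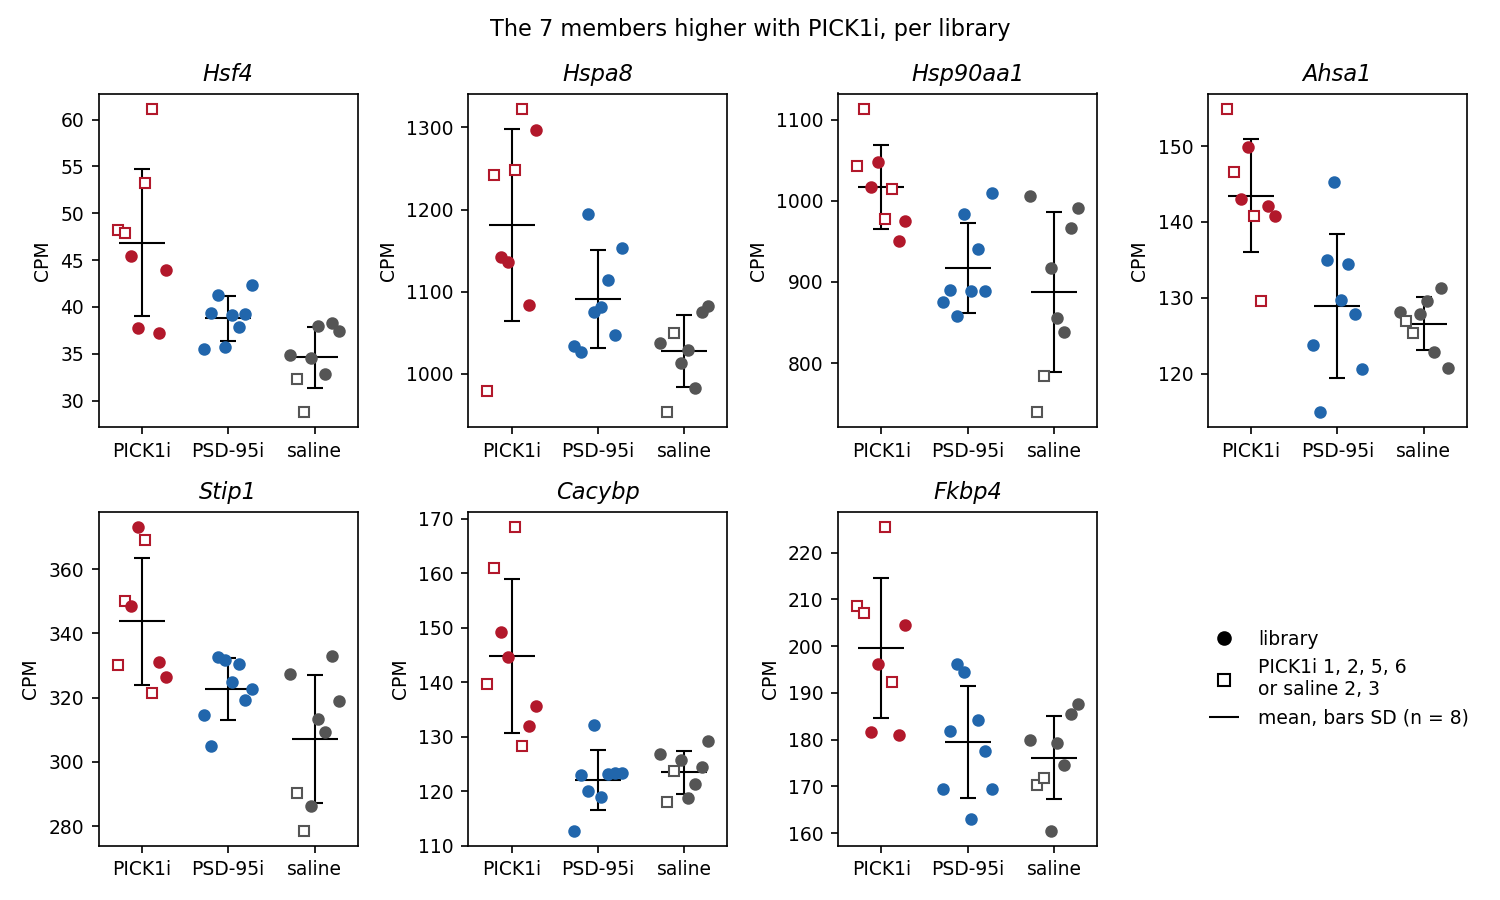
CPM scaled by TMM (vertical axes, not starting at 0) of the 7 members called in PICK1i against saline, in each library of PICK1i, PSD-95i and saline, with the mean and SD of 8 libraries. Open squares mark PICK1i replicates 1, 2, 5 and 6 and saline replicates 2 and 3, and the PSD-95i libraries of Cacybp (113 to 132 CPM) lie close to the saline libraries (118 to 129 CPM).

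The genes of small heat shock proteins and BAG3 included some of the most variable members. Hspb1, a small heat shock protein that keeps unfolded proteins soluble, had 4.37 to 10.4 CPM (median 7.60) with PICK1i and 3.55 to 31.1 CPM (median 6.30) with saline. Saline replicates 2 and 3, with 31.1 and 12.4 CPM, were higher than every other library. The log2 fold change was -0.42 ± 0.32 with all libraries (adjusted p = 0.400) and 0.29 without those 2 (adjusted p = 0.414). Bag3, which links HSP70 to the autophagy of misfolded proteins, was likewise highest in saline replicates 2 and 3 (46.3 and 47.5 CPM, against 21.3 to 34.5 CPM in the other 22 libraries). Its log2 fold change was -0.33 ± 0.12 (adjusted p = 0.0814), and without them -0.11 (adjusted p = 0.450).

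Cryab, a small heat shock protein abundant in oligodendrocytes and astrocytes, ran the other way. It had 85.2 to 144 CPM (median 125) with PICK1i and 61.1 to 124 CPM (median 101) with saline, with the 2 lowest values of all libraries in saline replicates 2 and 3 (61.5 and 61.1 CPM). The log2 fold change was 0.33 ± 0.12 (adjusted p = 0.0658), and without both sets of libraries that stood apart it was 0.01 (adjusted p = 0.987). The summed oligodendrocyte markers, all 10 detected in every library, ranged from 5441 to 9865 CPM in PICK1i and from 3070 to 7604 CPM in saline libraries, and their part in the Cryab values was not tested. Hspb8, the BAG3 partner, had -0.05 ± 0.09 (adjusted p = 0.753).

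The 2 subunits of the mitochondrial chaperonin are transcribed from opposite strands of chromosome 1 (GRCm38), where the annotated ends of Hspd1 (55077835 to 55088243, minus strand) and Hspe1 (55088132 to 55091307, plus strand) overlap. Neither passed the test. Hspe1, the lid subunit HSP10, had 58.4 to 91.5 CPM (median 65.5) with PICK1i and 57.7 to 67.2 CPM (median 61.0) with saline, a log2 fold change of 0.17 ± 0.08 (adjusted p = 0.139). Its highest values were in PICK1i replicates 1, 5 and 2 (91.5, 79.8 and 74.4 CPM), and without PICK1i replicates 1, 2, 5 and 6 the change was 0.02 (adjusted p = 0.916). Hspd1, the HSP60 barrel, had -0.05 ± 0.04 (adjusted p = 0.449).

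The 7 genes of TRiC, whose subunits stack as a double ring, showed log2 fold changes from -0.01 (Cct5) to 0.13 (Cct8). None passed the test in edgeR, with adjusted p of 0.0852 for Cct8, 0.163 for Cct7 and 0.195 for Cct3, and of 0.519 to 0.897 for the other 4. At an unadjusted p below 0.05, 2 of the 7 passed, about the share of all genes (28.8%). Cct8 was above every saline library in 6 of 8 PICK1i libraries, with 169 to 204 CPM in PICK1i against 158 to 184 CPM in saline.

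**Figure D3:**
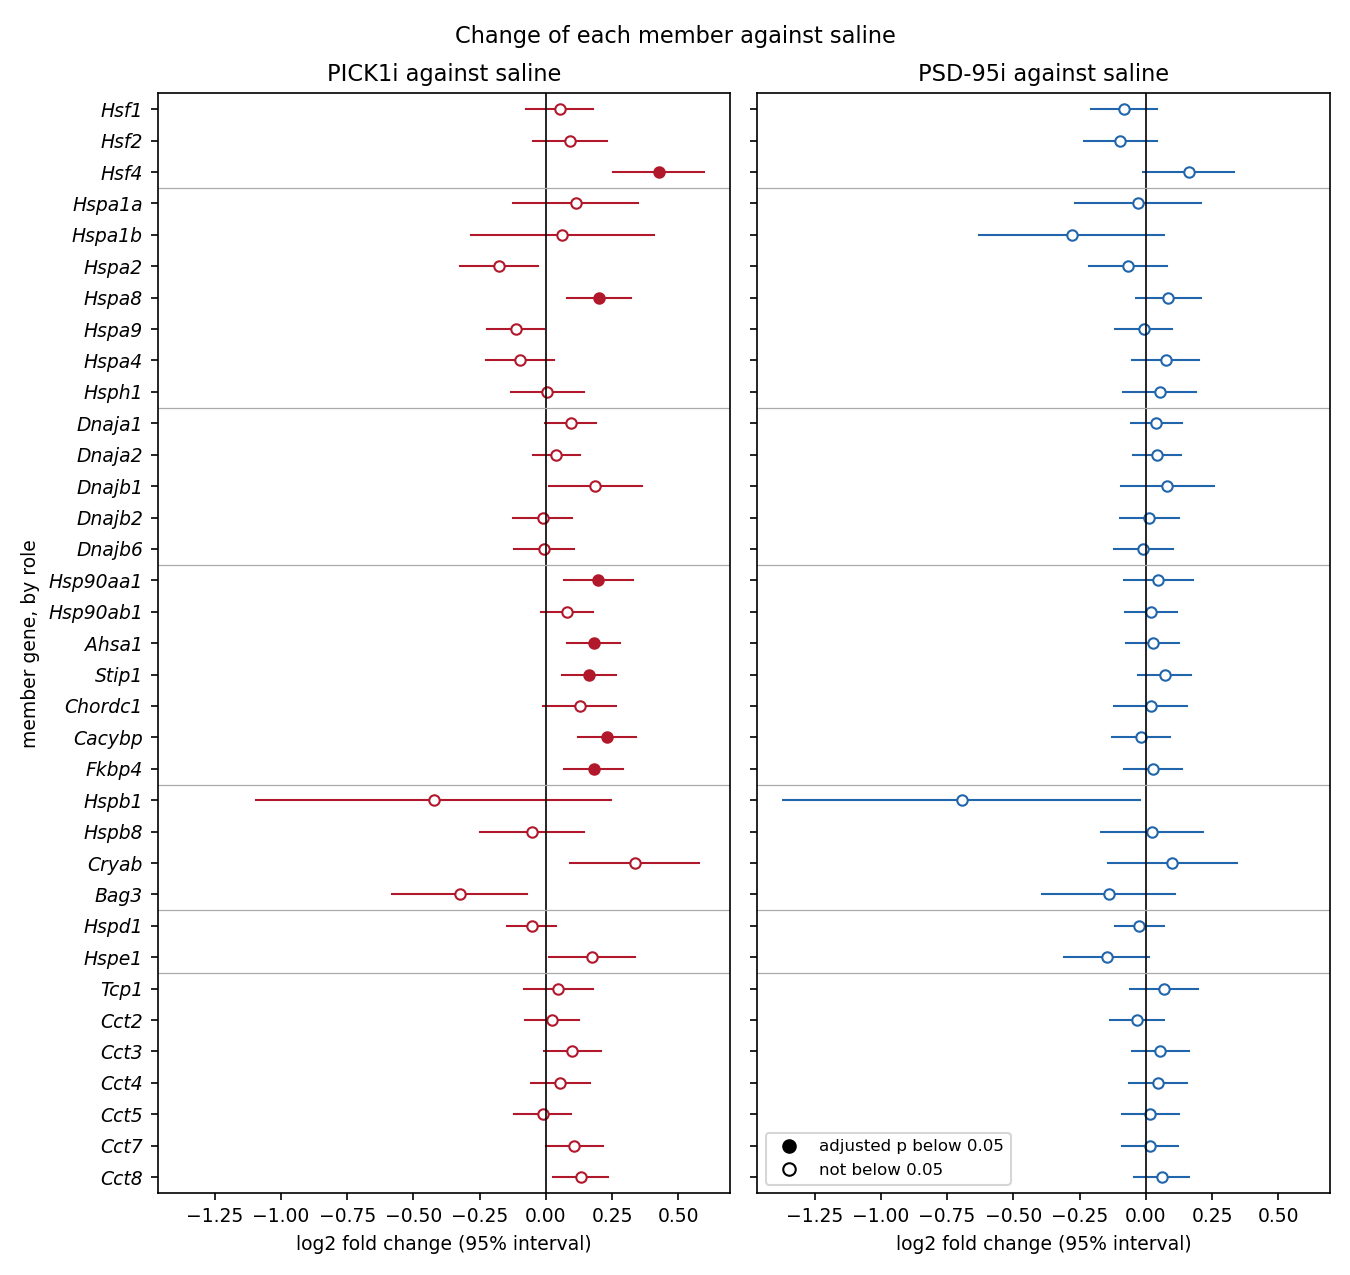
Log2 fold change with its 95% interval (horizontal axes) of each member (rows, by role) in PICK1i against saline and in PSD-95i against saline, from 1 edgeR fit to all 24 libraries, which share the saline libraries. Filled points mark an adjusted p below 0.05, found for 7 members with PICK1i and 0 with PSD-95i.

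Leaving out the libraries that stood apart moved the values of the 7 genes by different amounts. Without saline replicates 2 and 3 and PICK1i replicates 1, 2, 5 and 6 together, the log2 fold changes of Ahsa1 and Hspa8 were 0.18 and 0.16, near the values of all libraries (0.18 and 0.20). Cacybp gave 0.17, against 0.23 with all libraries, and Stip1 gave 0.13, against 0.16. Hsf4 gave 0.18, against 0.43, Hsp90aa1 gave 0.10, against 0.20, and Fkbp4 gave 0.10, against 0.18. None of the 7 had an adjusted p below 0.05 in that reduced fit, with values from 0.445 to 0.672. Of all 15992 genes tested there, 0 were called, so the loss of the calls is not particular to these genes. With each of the 16 PICK1i and saline libraries left out in turn, Hsf4 and Cacybp passed in 16 of 16 fits and Ahsa1 in 15. Stip1 passed in 9, Hspa8 in 8, Fkbp4 in 7 and Hsp90aa1 in 4. Shares of all genes called in these fits are not given here.

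**Figure D4:**
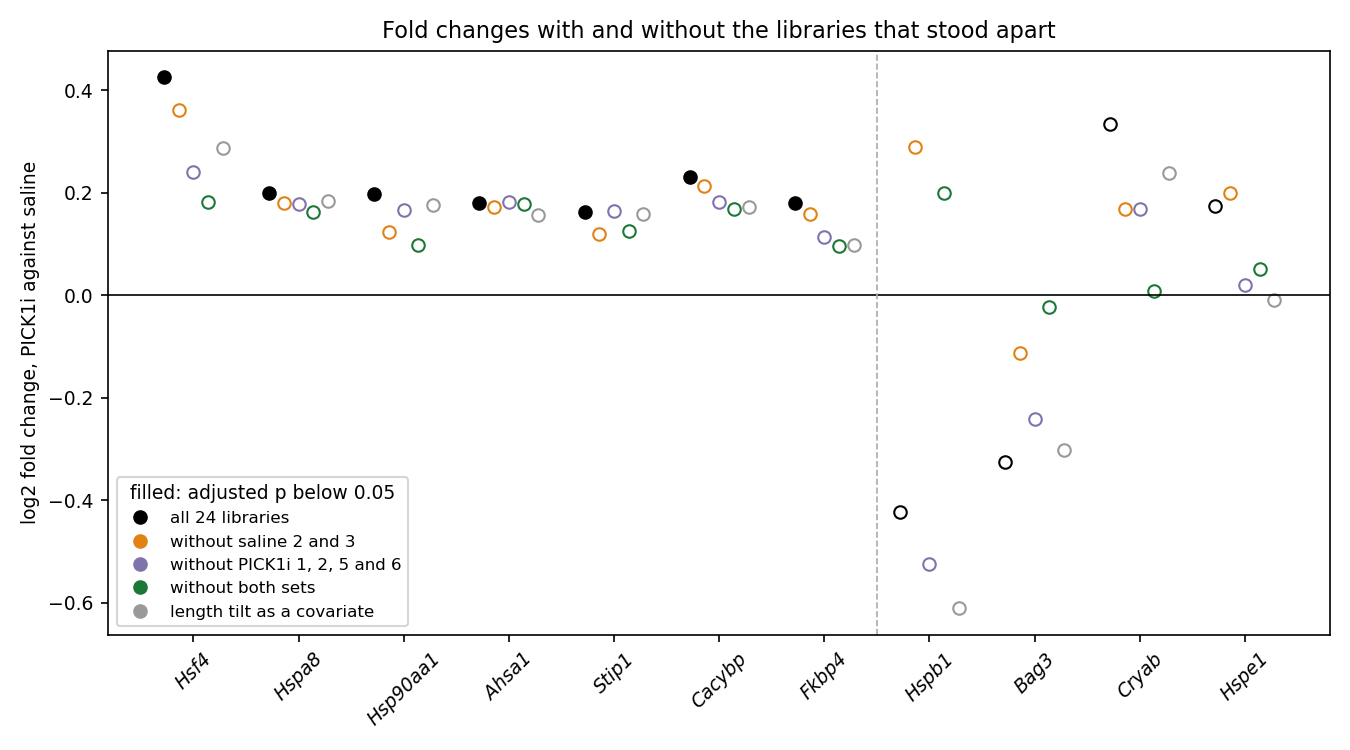
Log2 fold change in PICK1i against saline (vertical axis) of the 7 called members, left of the dashed line, and of 4 members that moved with single libraries, right of it, with all 24 libraries, without the libraries that stood apart and with length tilt as a covariate. Filled points mark an adjusted p below 0.05, which no gene shown had outside the fit of all 24 libraries without a covariate. Hspb1 lies on both sides of 0.

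Transcripts of the members were also tested. Of 158 transcripts of the members 127 were tested, and 4 were higher and 0 lower with PICK1i in edgeR's quasi-likelihood test, where 0.977% of all transcripts were called higher and 1.02% lower. All 4 calls were lost without saline replicates 2 and 3, and likewise without PICK1i replicates 1, 2, 5 and 6. Shares of all transcripts called in those 2 fits are not given here. For Hsp90aa1, the shorter coding transcript Hsp90aa1-201 averaged 573 ± 47.1 CPM with PICK1i and 472 ± 42.1 CPM with saline (SD, n = 8 each), a log2 fold change of 0.28 ± 0.07 (edgeR adjusted p = 0.0387). In PSD-95i libraries it averaged 484 ± 44.3 CPM. The longer coding transcript Hsp90aa1-202 had 0.08 ± 0.07 (adjusted p = 0.490), but the difference between the transcripts was not tested. The main coding transcript of Hspa8, Hspa8-202, had 0.22 ± 0.06 (adjusted p = 0.0434), and that of Cacybp, Cacybp-201, had 0.21 ± 0.06 (adjusted p = 0.0472). For Hsf4 the transcript called was Hsf4-204, annotated as a target of nonsense-mediated decay and holding 16.4% of the gene's counts, with 0.56 ± 0.14 (adjusted p = 0.0419). The main coding transcript Hsf4-206 had 0.30 ± 0.08 (adjusted p = 0.0521).

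With PSD-95i, 0 of the 35 members passed against saline in edgeR, where 0% of all genes were called, and 0 passed in DESeq2 and in limma-voom. At an unadjusted p below 0.05, met by 11% of all genes, only Hspb1 passed in edgeR, with 3.39 to 8.05 CPM (median 6.99) in PSD-95i libraries against 3.55 to 31.1 CPM (median 6.30) in saline libraries and a log2 fold change of -0.69 ± 0.32 (adjusted p = 0.436). Without saline replicates 2 and 3 no member was under 0.05 unadjusted, where 2.45% of all genes were. The median log2 fold change of the members was 0.02, against -0.00 over all genes tested. Hsf4 was above the saline median in 8 of 8 PSD-95i libraries, with 35.5 to 42.3 CPM (median 39.2) against 28.8 to 38.3 CPM (median 34.7), and its log2 fold change of 0.16 ± 0.08 did not pass (adjusted p = 0.468).

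For the genes called with PICK1i, the PSD-95i values against the same saline libraries were 0.05 ± 0.06 for Hsp90aa1, 0.03 ± 0.05 for Ahsa1 and -0.02 ± 0.05 for Cacybp. They were 0.03 ± 0.05 for Fkbp4, 0.07 ± 0.05 for Stip1 and 0.09 ± 0.06 for Hspa8. Of the stress-inducible genes, Hspa1a was at -0.03 ± 0.11 and Dnajb1 at 0.08 ± 0.08. Hspa1b was at -0.28 ± 0.17 (95% interval -0.63 to 0.07, edgeR adjusted p = 0.529) and Bag3 at -0.14 ± 0.12 (adjusted p = 0.663), and neither passed.

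Set directly against each other, at 25 mg/kg of PSD-95i and 56 mg/kg of PICK1i, the inhibitors differed for 0 of the 35 members in edgeR, where 0% of all genes were called. At an unadjusted p below 0.05 there were 9 of 35, close to the 24.2% of all genes. DESeq2 called 6 members, where 8.67% of all genes were called, and limma-voom 2, where 2.74% were. Cacybp had 113 to 132 CPM (median 123) with PSD-95i and 128 to 168 CPM (median 142) with PICK1i, a log2 fold change of -0.25 ± 0.05 (edgeR adjusted p = 0.0513, 95% interval -0.36 to -0.14). Hspe1 had 50.6 to 68.2 CPM (median 54.2) with PSD-95i and 58.4 to 91.5 CPM (median 65.5) with PICK1i, a log2 fold change of -0.32 ± 0.08 (adjusted p = 0.0513, 95% interval -0.48 to -0.16). Ahsa1 and Hsf4 followed, at -0.15 ± 0.05 and -0.26 ± 0.08 (adjusted p = 0.0665 and 0.0656), and Fkbp4 was at -0.15 ± 0.05 (adjusted p = 0.0900). Hspa4 was the only 1 of the 9 with a higher value under PSD-95i, at 0.17 ± 0.06 (adjusted p = 0.0945). Without saline replicates 2 and 3, which enter this contrast only through filtering, scaling and the shared estimate of spread, Hsf4, Ahsa1, Cacybp and Hspe1 passed as lower with PSD-95i, where 7.64% of all genes were called.

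The level of Hspa1a varied between libraries with that of Hspa1b and with that of Dnajb1, all stress-inducible. Hspa1b was not compared with Dnajb1, and r within single groups was not tested. Over the 24 libraries, with the group mean removed from each log2 CPM, Hspa1a was compared with 7 other members. Its correlation with Dnajb1 was r = 0.710 and rho = 0.661 (permutation test with 100000 resamples, p = 3e-05 and 0.00064, adjusted over 7 pairs p = 0.000105 and 0.00224), and it was 0.785, 0.587 and 0.719 within PICK1i, PSD-95i and saline. Without the 2 libraries farthest from the median of Hspa1a (saline replicate 2 and PICK1i replicate 7), r was 0.687. With Hspa1b it was r = 0.749 and rho = 0.723 (permutation p = 2e-05 and 0.0001, adjusted p = 0.000105 and 0.0007), and 0.631 without the 2 libraries, but these genes share reads. With Hsph1 it was r = 0.397 and rho = 0.473 (permutation adjusted p = 0.129 and 0.0487), and 0.519 without the 2 libraries, but within groups it was 0.617 in PICK1i, 0.653 in PSD-95i and -0.0738 in saline. The remaining 4 genes did not pass in the same permutation test, at r = 0.338 for Hspb1, 0.153 for Bag3, 0.0259 for Hspa8 and 0.0237 for Hsp90aa1, with adjusted p of 0.184 to 0.912. Without the 2 libraries r was 0.0478 for Hspb1, -0.180 for Bag3, 0.268 for Hspa8 and 0.407 for Hsp90aa1.

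**Figure D5:**
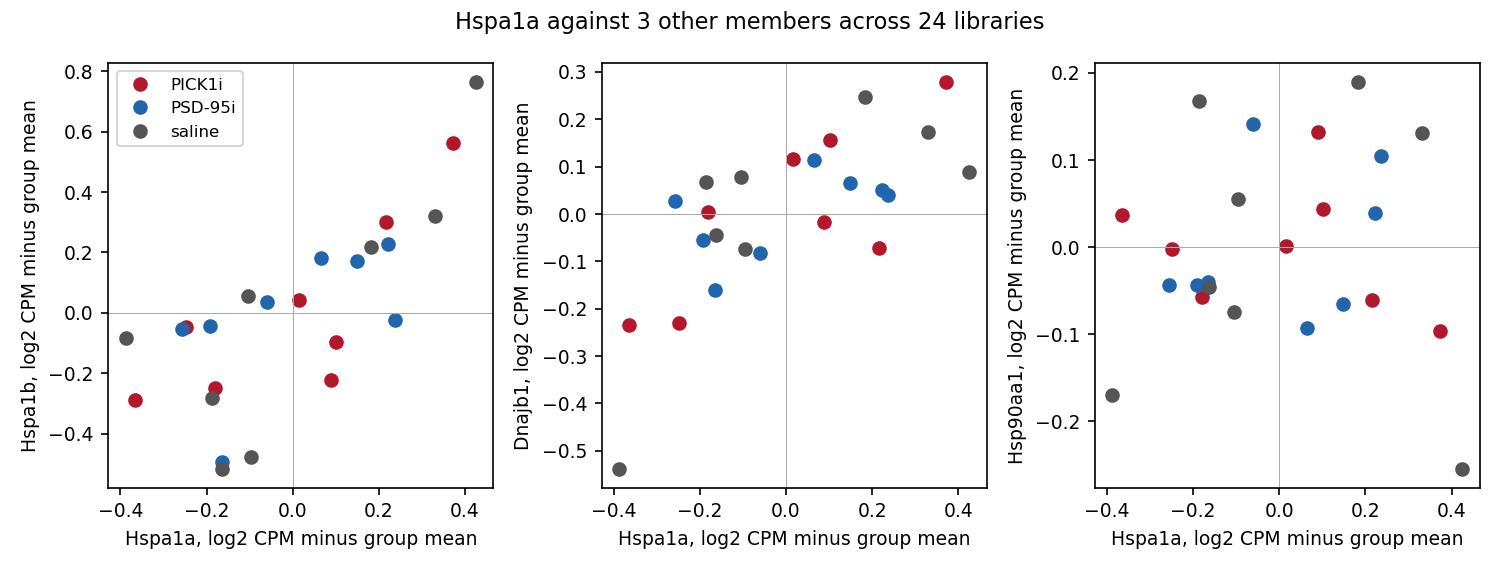
Log2 CPM of Hspa1b, Dnajb1 and Hsp90aa1 (vertical axes) against that of Hspa1a (horizontal axes), each minus its group mean, in 24 libraries coloured by group. Hspa1b (r = 0.749) and Dnajb1 (r = 0.710) rise with Hspa1a in all groups, whereas Hsp90aa1 (r = 0.0237) shows no such order.

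Other folding genes were read from lists of related systems. The shares to set beside each list in PICK1i against saline are 4.88% of all genes called higher and 4.27% lower. These lists were also chosen with earlier results of these data known, so the counts do not test them. In PICK1i against saline (edgeR), 6 of 15 other TRiC, prefoldin and tubulin folding genes were higher and 0 lower, with a list median of 0.22. They included the prefoldin subunits Pfdn2 (0.33 ± 0.08, adjusted p = 0.0207), Pfdn4 (0.39 ± 0.10, adjusted p = 0.0221) and Pfdn6 (0.37 ± 0.10, adjusted p = 0.0253), which hand unfolded actin and tubulin to TRiC, and the tubulin cofactor Tbca (0.30 ± 0.09, adjusted p = 0.0417). Of 20 other HSP90 cochaperones 3 were higher, Ttc4 (0.30 ± 0.06, adjusted p = 0.0181), Fkbp8 (0.25 ± 0.07, adjusted p = 0.0298) and Ptges3, which encodes p23 (0.17 ± 0.05, adjusted p = 0.0353), and 1 was lower, Rpap3 (-0.19 ± 0.06, adjusted p = 0.0419).

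Of 25 other HSP70 and J-domain genes 2 were higher, Dnajb5 (0.33 ± 0.08, adjusted p = 0.0213) and the HSP70 exchange factor Bag1 (0.23 ± 0.06, adjusted p = 0.0310), and 1 was lower, Hspa13 (-0.34 ± 0.11, adjusted p = 0.0483). Among 12 other mitochondrial chaperones and proteases the protease gene Clpp was higher (0.26 ± 0.08, adjusted p = 0.0340) and 0 were lower. Of 16 chaperones of the endoplasmic reticulum 0 were higher and 2 were lower, Dnajc3 (-0.49 ± 0.12, adjusted p = 0.0219) and Dnajb9 (-0.36 ± 0.11, adjusted p = 0.0401). Both are J-domain partners of the HSP70 of that compartment. In the fit without saline replicates 2 and 3, chosen for these lists after seeing the data, their values were -0.29 and -0.12 (adjusted p = 0.0847 and 0.136), and the median of the list was 0.03, against -0.17 with all libraries. Of the 13 mitochondrially encoded genes 8 were higher and 0 lower. None of the 5 lists of nuclear genes had a gene called in this comparison once saline replicates 2 and 3, or PICK1i replicates 1, 2, 5 and 6, were left out. Of all genes, only 0.0316% and 0% were called in those fits, so this says little about the lists. The median of the TRiC, prefoldin and tubulin folding list was 0.21 and 0.06 in those fits, against 0.22 with all libraries. Without PICK1i replicates 1, 2, 5 and 6, log2 fold changes were 0.15 for Pfdn2, 0.20 for Pfdn4, 0.07 for Pfdn6 and 0.06 for Tbca. In the same fit they were 0.08 for Bag1 and for Clpp, -0.04 for Hspa13, 0.18 for Ttc4 and 0.14 for Ptges3. With PSD-95i 0 genes of any of these lists were called against saline in edgeR. All 16 chaperones of the endoplasmic reticulum had a log2 fold change below 0 in that comparison, as had 7981 of all 15667 genes, with a list median of -0.21. Of the 16, 7 had an unadjusted p below 0.05 in edgeR, met by 11% of all genes. Without saline replicates 2 and 3, which carried Gh, the list median was -0.03, with 12 of 16 below 0. At an unadjusted p below 0.05 there were 0 of the 16 in that fit, where 2.45% of all genes were.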

How the data were processed

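Poly(A) RNA of whole hypothalamus was sequenced as 52-base pairs from a stranded library kit, per the labels. The authors deposited estimated counts for genes and transcripts without normalisation, made with bcl2fastq 2.20.0, STAR, Salmon and GRCm38 per the submitters' processing notes. The sources used here give no version of STAR or Salmon, no annotation release and no strand setting. Of gene values, 94.3% were whole within 0.001. Groups came from the labels, and 84 pairs of replicates held 0 identical libraries.

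Estimated counts were rounded to whole numbers, kept by filterByExpr with minimum count 10 (99.3% of counts), scaled by TMM and tested with edgeR 4.0.16 in R 4.3.3 (quasi-likelihood, 1 fit to 24 libraries, 21 residual degrees of freedom, two-sided, Benjamini-Hochberg, threshold 0.05); transcripts were tested the same way. CPM of members used TMM totals, and log2 CPM a prior count of 2; CPM of markers and hormones used library totals. TPM used GENCODE M21 transcript lengths. Length tilt is the slope of a library's log2 deviations on log2 transcript length. A 52-base window counted as shared when it occurred in a transcript of another gene. Alternatives used limma 3.58.1, DESeq2 1.42.0 and sva 3.50.0. Members and lists were chosen with earlier results of these data known. All 35 members may be named, and of each other list up to 4 called genes with the smallest p. Depth limits the low members most: the lowest library held 25 estimated counts of Hspb1 and 32 of Hspa1b.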

Additional observations from a re-analysis of the deposited data

Results flagged for a closer look

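In 5 of the 105 sets of 8 libraries formed by 35 members and 3 groups, the highest or lowest library stood apart from the other 7. This was judged by Dixon's test on log2 CPM at the 95% level, by which chance flags about 1 of 20 sets. On this log2 scale Hspb1 was not among them, although saline replicates 2 and 3 were higher than every other library. Hspa1b was lowest in PSD-95i replicate 2, at 4.75 CPM, against 6.54 to 8.01 CPM in the other PSD-95i libraries. Hspa2 was lowest in PICK1i replicate 6, at 40.6 CPM, against 52.8 to 65.4 CPM in the other PICK1i libraries, and this library also held the most cortical and hippocampal marker transcripts, whose part in the value was not tested. Dnajb1 was lowest in saline replicate 3, at 47.0 CPM, against 65.0 to 81.3 CPM in the other saline libraries, and this library also held Gh at 31688 CPM, whose part was not tested. Hsp90ab1 was lowest in saline replicate 5, at 1323 CPM, against 1385 to 1441 CPM in the other saline libraries. Hspe1 was highest in PSD-95i replicate 4, at 68.2 CPM, against 50.6 to 57.1 CPM in the other PSD-95i libraries.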

How the results depend on the processing

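For PICK1i against saline, the 7 members called became 0 without saline replicates 2 and 3, without PICK1i replicates 1, 2, 5 and 6, without both sets, in a fit of only the 2 groups compared and with length tilt as a covariate. Of all genes, each of these fits called at most 4 as higher and 1 as lower. The count was 3 with no filter, 3 with 2 surrogate variables and 2 in limma-voom with a random block for neighbouring library numbers. That block treated the neighbouring libraries of each pair as related rather than independent. Of all genes, 542 were higher and 508 lower of 28070 with no filter. Of 15667 genes, 96 were higher and 33 lower with surrogate variables, and 199 and 117 with the random block. The member count was 7 with RLE size factors, with a minimum count of 50 and with limma-voom. It was 9 with DESeq2, which also called Cryab and Cct8 as higher, and 6 with near-identical genes pooled, an alternative added after seeing the data. Of all genes, these fits called 628 to 1030 as higher and 486 to 961 as lower. Leaving out each library gave 2 to 8 members. There were 2 without saline replicate 2, and 3 without saline replicate 3, 4 or 6 or PICK1i replicate 5. Without PICK1i replicate 2, 6 or 8 there were 4. The 8 included Bag3 as lower without saline replicate 1 or PICK1i replicate 7, and Cryab as higher without saline replicate 7. Shares of all genes called in these leave-one-out fits are not given here, so the swings cannot be read as particular to the members. With the replicate number as a block the count was 3 (Hsf4, Ahsa1 and Cacybp), where 624 of all genes were higher and 503 lower. Same-numbered libraries deviated together (r above 0.1) in 5 of 24 pairs, with r from -0.194 to 0.150. Whether equal numbers in different groups shared handling was not stated, and these correlations cannot settle it. All 7 genes kept a positive log2 fold change in these fits.

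For PSD-95i against PICK1i, 0 became 3 with a minimum count of 50, 6 with DESeq2, 2 with limma-voom, 7 with 2 surrogate variables and 4 without saline replicates 2 and 3, and 0 to 6 with each library left out (2, 4, 6 and 2 without PICK1i replicate 3, 4, 7 or 8). Of all genes, 368 were higher and 297 lower with a minimum count of 50, and 802 and 737 with surrogate variables. DESeq2, limma-voom and the fit without saline replicates 2 and 3 called 8.67%, 2.74% and 7.64% of all genes. Shares for the fits with each library left out are not given here. For PSD-95i against saline the count was 0 in every alternative run. Transcripts called in PICK1i against saline, 4 in all libraries, became 7 with a minimum count of 50 and 0 with no filter, the replicate block, without saline replicates 2 and 3 or without PICK1i replicates 1, 2, 5 and 6, and in PSD-95i against PICK1i 0 became 3 with a minimum count of 50 and 1 with limma-voom. Shares of all transcripts called in these alternative transcript fits are not given here, so those counts cannot be read as particular to the members. The cause of these shifts was not tested.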
